A study of Mus musculus with 2 samples.

Results

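The transcripts described here are 8 genes used to recognise mast cells and basophils, namely Fcer1a, Ms4a2, Cpa3, Mcpt8, Prss34, Gata2, Kit and Hdc. They were chosen by gene name, and all 8 were found once each among the 51084 gene identifiers that the count tables of the study share, of which 12779 reached 1 CPM (1 count in 1000000 scaled counts) in a library. The cells were macrophages derived in culture from the bone marrow of C57BL/6J mice. One group is 1 sample treated with CANDI470, an agent known here by its code name, given at 1 mg/mL on day 7 of culture, with RNA taken 12 h later. The other group is 1 control sample treated with PBS, a buffered saline. Poly(A)-selected RNA of each was sequenced with paired reads of 150 bases. The columns for a further control and for cultures given empty CANDI have no sample record in the labels and were not used here. Variation of these transcripts between cultures of the same treatment could therefore not be judged, and every difference below is between 1 library and another.

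Mast cells and basophils are rare blood-forming-lineage cells that bind IgE through a high-affinity receptor and release stored granules when antigen crosslinks it. That receptor is built from an IgE-binding alpha chain (Fcer1a), an amplifying beta chain (Ms4a2) and a signalling gamma chain (Fcer1g) that macrophages also make for their IgG receptors. The granules carry proteases and histamine. Both cell types arise from marrow progenitors under the transcription factor GATA2, mast cells keep the receptor tyrosine kinase KIT, and mouse basophils mostly do not. Hdc, the enzyme that makes histamine from histidine, is also known from activated macrophages and immature myeloid cells of the mouse, and Kit and Gata2 from marrow progenitors.

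The CANDI470 library held 41646905 counts over its table and the control library 28442450. CPM values are scaled with factors computed by the trimmed mean of M-values (TMM), and the floor set for a gene without reads is 3 counts, or 0.0927 CPM with CANDI470 and 0.0828 CPM with PBS. Macrophage markers were present in both libraries: all 8 of a list of 8 passed 1 CPM, and their summed level was 12564 CPM with CANDI470 and 20852 CPM with PBS. Most of each sum was Lyz2, with 7274 CPM and 13837 CPM. The 8 did not share one direction: 2 were at least 2-fold higher with CANDI470 (Fcgr1 and Mertk), beside 25.7% of all genes. Csf1r was at least 2-fold lower, beside 23.6%, and 5 lay within 2-fold. The 2 count tables were made with different gene models. Treatment and table cannot be told apart, although 7 of the 8 members had the same gene length in both tables and Prss34 was 1220 bases in one and 1216 bases in the other. In a bulk library, fewer cells of a type and less RNA per cell cannot be told apart either.

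The bases just before the transcription start are printed for the 4 members whose start region held a GATA sequence within 100 bases, since GATA2 is itself one of the members. They are from RefSeq, build GRCm38.p6, on the gene's own strand and read 5′ to 3′, with the last base next to the start. Capitals mark AGATAA, or its reverse complement TTATCT.
Fcer1a, chr1:173227230-173227329, minus strand: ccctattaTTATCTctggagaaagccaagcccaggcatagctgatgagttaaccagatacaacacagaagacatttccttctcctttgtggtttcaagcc
Ms4a2, chr19:11623720-11623819, minus strand: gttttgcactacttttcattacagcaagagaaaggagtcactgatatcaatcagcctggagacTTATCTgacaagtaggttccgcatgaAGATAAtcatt
Cpa3, chr3:20242182-20242281, minus strand: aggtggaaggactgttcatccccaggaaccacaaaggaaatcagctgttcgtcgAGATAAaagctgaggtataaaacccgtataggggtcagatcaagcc
Prss34, chr17:25298294-25298393, plus strand: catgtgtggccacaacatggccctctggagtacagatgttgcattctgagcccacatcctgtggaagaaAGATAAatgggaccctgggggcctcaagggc

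The match began 92 bases before the start in Fcer1a, 46 bases in Cpa3 and 31 bases in Prss34. Ms4a2 had a match at 37 bases and another at 11 bases, and a further match at 224 bases that lies outside the stretch shown. The search covered AGATAA and TGATAA, each also with G as its last base, on both strands of a window of 300 bases, from 250 before the start to 50 after it. RefSeq gave 10 such windows for the 8 members, and 5 members had a match, the fifth being Hdc at 221 bases. Of all 32851 RefSeq windows of that length, 29.8% held a match. CACGTG or CATGTG, the sequence read by the mast cell factor MITF, was found in the windows of 2 members, Fcer1a and Prss34, against 20.4% of all windows. GAGGAA, the core read by the myeloid factor PU.1, was found in 3 members, Fcer1a, Mcpt8 and Kit, against 28.3%. TTCNNNGAA, the sequence read by STAT factors, was found in 0 members against 8.30% of all windows. A match is only a run of letters, and binding was not measured.

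All 8 genes had more scaled counts in the CANDI470 library than in the control. Summed, they had 8047 counts with CANDI470 and 136 with PBS, or 249 CPM and 3.76 CPM, a ratio of 66.2 with a counting interval of 55.9 to 79.0. By a rule of size, a difference of at least 2-fold on log2(CPM + 1), 8 of 8 were higher in CANDI470. The same was true of 25.7% of the 12779 genes that reached 1 CPM, and of 6.42% of all shared identifiers. Of the 8, 7 lay under 1 CPM in the control and so reached the minimum only through the CANDI470 library, which makes their count a description. All intervals here are 95% intervals that cover counting error only, and none measures the spread between cultures.

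**Figure D1:**
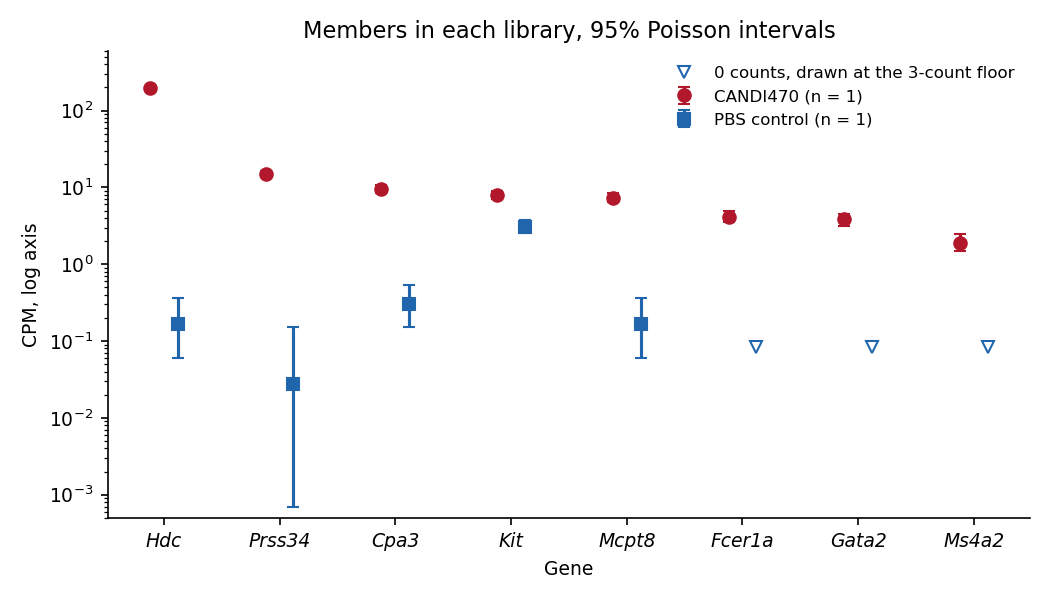
CPM of each gene on a log axis in the CANDI470 library (circles) and the PBS control library (squares), with 95% exact Poisson intervals. Open triangles stand for 0 counts in the control, drawn at the floor of 0.0828 CPM. Kit is the gene whose libraries lie nearest to each other, at 7.97 and 3.09 CPM.

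The genes for the IgE-specific receptor chains were read in the CANDI470 library and had no count in the control. Fcer1a (chr1:173221284-173227214, GRCm38), which encodes the chain that grips IgE, had 135 counts with CANDI470 and 0 with PBS. Its level in CANDI470 was 4.17 CPM with an interval of 3.50 to 4.94 CPM, which is 50.4 times the control floor. Ms4a2 (chr19:11615523-11623719), the beta chain that strengthens the signal, had 62 counts with CANDI470 and 0 with PBS. Its level in CANDI470 was 1.92 CPM with an interval of 1.47 to 2.46 CPM, which is 23.1 times the control floor. The lower limits of the ratio intervals were 40.4 for Fcer1a and 18.3 for Ms4a2. The fitted log2(CPM + 1) difference was 2.37 for Fcer1a and 1.54 for Ms4a2, values that depend on the pseudocount because the control is at 0. With the CANDI470 counts thinned to the depth of the control library, these differences were 2.42 and 1.41.

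The gamma chain behaved otherwise. Fcer1g, which macrophages need for IgG receptors, had 21017 counts with CANDI470 and 30680 with PBS, a log2 difference of -0.38. Of the 8 listed partners and signalling proteins of the receptor, 7 reached 1 CPM, 3 were at least 2-fold higher in CANDI470, 2 were at least 2-fold lower, and the median log2 difference was 0.14, where that of all genes was -0.01. The share of all genes at least 2-fold higher was 25.7%, and that at least 2-fold lower was 23.6%. Those higher were the kinase Syk, with a log2 difference of 1.33, the adaptor Gab2 with 1.27 and the kinase Lyn with 1.26. Those lower were the phospholipase Plcg2 with -1.68 and the kinase Btk with -1.01. With scaling by library totals Lyn, Syk and Gab2 lay within 2-fold, at 0.55, 0.62 and 0.56, and Fcer1g was at -1.09. Macrophages express these signalling genes as well.

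The granule proteases among the 8 had 238 to 485 counts each in CANDI470 and 1 to 11 in the control. Prss34 (chr17:25298394-25300161), a basophil tryptase also called mMCP-11, had 485 counts with CANDI470 and 1 with PBS, or 15.0 CPM and 0.0276 CPM. The ratio was 543, with an interval of 97.0 to 21485 whose width comes from the single control count, and the log2 difference was 3.96. Mcpt8 (chr14:56082166-56085273), a serine protease of mouse basophil granules, had 238 counts with CANDI470 and 6 with PBS, or 7.36 CPM and 0.166 CPM. Its ratio was 44.4 (interval 20.1 to 122) and its log2 difference 2.84. Cpa3 (chr3:20215620-20242181), a carboxypeptidase of mast cell granules that basophils also express, had 309 counts with CANDI470 and 11 with PBS, or 9.55 CPM and 0.304 CPM. Its ratio was 31.4 (interval 17.3 to 63.6) and its log2 difference 3.02. The interval of Prss34 lies above that of Cpa3, while that of Mcpt8 overlaps both. The gene model of Cpa3 overlaps the microRNA gene Mir7007 in both tables and that of Mcpt8 overlaps Mir6949, and how shared reads were assigned is not given in the sources used here.

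Hdc had the largest difference of the 8. Hdc (chr2:126593667-126619299) had 6436 counts with CANDI470 and 6 with PBS, or 199 CPM (interval 194 to 204) and 0.166 CPM. The ratio was 1201, with an interval of 551 to 3273, and the log2 difference of 7.42 ranked 60 among the 12779 genes. Hdc made up 80.0% of the members' counts in CANDI470 (exact binomial interval 79.1 to 80.8%) and 4.41% in the control (1.64 to 9.36%). Without it the summed counts were 1611 with CANDI470 and 130 with PBS, a ratio of 13.9 with an interval of 11.6 to 16.7. With Gata2, Kit and Hdc all left out, genes that other marrow cells or activated macrophages also express, the remaining 5 had 1229 counts with CANDI470 and 18 with PBS, a ratio of 76.4 (interval 48.2 to 129).

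Other genes that handle histamine did not share one direction. Of 6 listed, 3 reached 1 CPM. Hrh2, a histamine receptor, had 408 counts with CANDI470 and 6 with PBS, a log2 difference of 3.55. It lay under 1 CPM in the control and reached the minimum only through the CANDI470 library. Hnmt, which methylates and so inactivates histamine, had 156 counts with CANDI470 and 877 with PBS, a log2 difference of -2.11. The receptor gene Hrh1 had 40 and 37 counts, a difference of 0.15 that became -0.23 with library totals, and Aoc1, which encodes diamine oxidase, had 0 in both.

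Gata2 and Kit parted from each other in the control. Gata2 (chr6:88193891-88207032), the transcription factor, had 124 counts with CANDI470 and 0 with PBS. Its level in CANDI470 was 3.83 CPM (interval 3.19 to 4.57), which is 46.3 times the control floor. Kit (chr5:75574916-75656722), the receptor for stem cell factor, had 258 counts with CANDI470 and 112 with PBS, or 7.97 CPM (7.03 to 9.01) and 3.09 CPM (2.55 to 3.72). Its ratio was 2.58 with an interval of 2.06 to 3.25, and its log2 difference of 1.13 was the smallest of the 8. With scaling by library totals that difference was 0.54, and with upper-quartile scaling 0.83, so its place past the 2-fold rule depends on the scaling. Kit made up 82.4% of the members' counts in the control (interval 74.9 to 88.4%) and 3.21% in CANDI470 (2.83 to 3.61%). The control library thus held Kit reads with no Gata2, Fcer1a or Ms4a2 read beside them. It did hold a few reads of the other members, with 11 counts for Cpa3, 6 for Mcpt8, 6 for Hdc and 1 for Prss34.

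**Figure D2:**
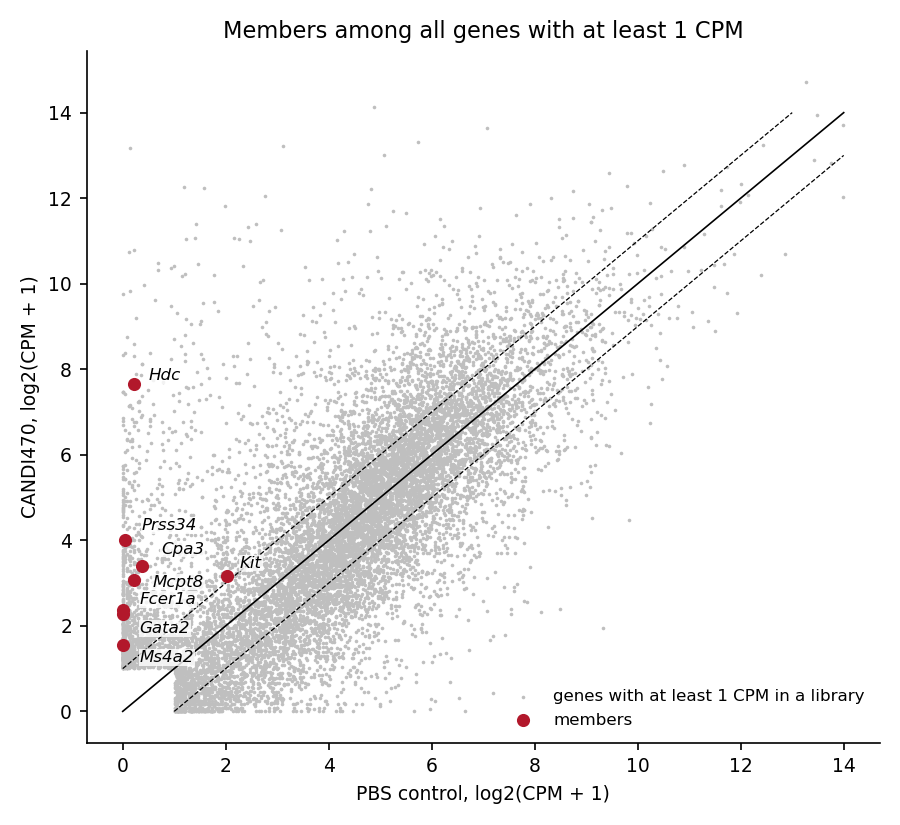
log2(CPM + 1) in the CANDI470 library against the PBS control library for the 12779 genes that reached 1 CPM in either (grey), with the 8 members in red. The solid line marks equal values and the dashed lines 2-fold differences. Of the members, 7 lie at the left edge, under 1 CPM in the control, and Kit lies just above the upper dashed line.

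Among all genes the members' differences were spread widely. By size of difference, Prss34 ranked 401, Cpa3 706, Mcpt8 788, Fcer1a 1110, Gata2 1191, Ms4a2 2070 and Kit 2928 of 12779. Their levels were low to moderate even in CANDI470. Per kb of gene model, which allows genes to be compared, the level in CANDI470 was 31.1 CPM per kb for Hdc, 12.3 for Prss34, 7.37 for Mcpt8, 6.30 for Cpa3 and 4.18 for Fcer1a. Kit followed at 0.895 CPM per kb, Gata2 at 0.710 and Ms4a2 at 0.681. Counting intervals overlapped between Mcpt8 and Cpa3, between Kit and Gata2, between Kit and Ms4a2 and between Gata2 and Ms4a2, so those neighbours are not ordered. Of 11657 genes ranked by level per kb in CANDI470, Hdc was at 1761, Prss34 at 3441 and Ms4a2 at 10180. In the control the level was 0.347 CPM per kb for Kit, 0.200 for Cpa3 and 0.166 for Mcpt8, the last of these on 6 counts.

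**Figure D3:**
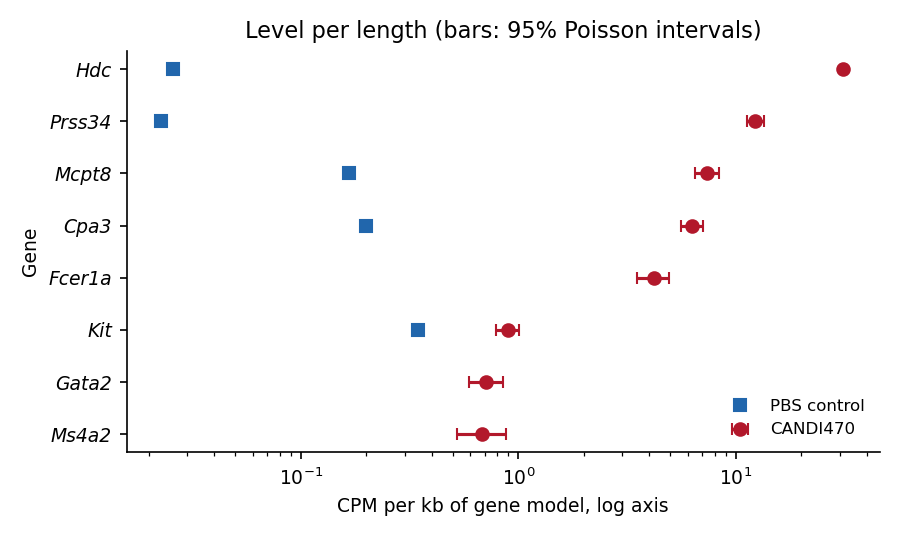
CPM per kb of gene model on a log axis for each gene in the CANDI470 library (circles, with 95% Poisson intervals) and the PBS control library (squares, shown where the count is above 0). Hdc leads at 31.1 CPM per kb in CANDI470, and the intervals of Kit, Gata2 and Ms4a2 overlap at the low end.

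Further genes of mast cells and basophils did not all go the same way. Of 26 such genes in 3 lists, 15 reached 1 CPM. At least 2-fold higher in CANDI470 were 8 of them, beside 25.7% of all genes, and at least 2-fold lower were 3, beside 23.6%. Of the 8, 6 lay under 1 CPM in the control and so reached the minimum only through the CANDI470 library, which makes this count a description too. The other 11 lay under 1 CPM in both libraries, and 6 of these had no count in either.

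Among 9 other granule proteases, 3 reached 1 CPM, and all 3 did so only through the CANDI470 library, so that the minimum itself set their direction. Cma1, the mast cell chymase, had 99 counts with CANDI470 and 0 with PBS, with CANDI470 at 36.9 times the control floor. Tpsb2, a mast cell tryptase, had 64 and 0 counts, with CANDI470 at 23.9 times that floor. However, its gene model measured 1594 bases in one table and 1081 in the other. Ctsg, cathepsin G of mast cells and neutrophil precursors, had 70 and 6 counts and a log2 difference of 1.44. Mcpt2, Mcpt4 and Mcpt9, further mouse mast cell proteases, had 0 counts in both libraries, and Tpsab1, another tryptase, had 0 with CANDI470 and 1 with PBS. These proteases are close relatives of each other, and reads shared between copies could be split by the counting.

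Other mast cell genes were mostly within 2-fold. Of 8, 6 reached 1 CPM, 1 was higher, 1 was lower and 4 lay within 2-fold, where 25.7% of all genes were higher and 23.6% lower. The higher gene was Srgn, the proteoglycan core of secretory granules, which macrophages also make, with 59966 counts with CANDI470 and 2680 with PBS and a log2 difference of 4.63. The lower gene was Hpgds, a prostaglandin D synthase, with 3300 and 9293 counts and a difference of -1.32. Mitf, a transcription factor of mast cells and macrophages, had a difference of 0.97. Mrgprb1 and Mrgprb2, receptors of connective-tissue mast cells, had 0 counts in both libraries.

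Of 9 other basophil genes, 6 reached 1 CPM. At least 2-fold higher in CANDI470 were 4, beside 25.7% of all genes, and at least 2-fold lower were 2, beside 23.6%. Of the 4, Cd200r3, Cyp11a1 and Il13 reached the minimum only through the CANDI470 library, so that the minimum itself set their direction. Cd200r3, a receptor of mouse basophils and mast cells, had 292 counts with CANDI470 and 2 with PBS, a log2 difference of 3.25. Cyp11a1, a steroid-making enzyme, had 199 and 0 counts, with CANDI470 at 74.2 times the control floor. The cytokine gene Il13 had 123 and 0 counts, with CANDI470 at 45.9 times that floor. The integrin gene Itgb7 had 3119 and 291 counts and a difference of 3.43. Against these, Il4, a cytokine that basophils secrete, had 33 counts with CANDI470 and 241 with PBS, a difference of -1.92. Il3ra, the specific chain of the IL-3 receptor, had 1474 and 5790 counts and a difference of -1.79. Ptgdr2, a prostaglandin D2 receptor of basophils, had 0 counts in both libraries.

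**Figure D4:**
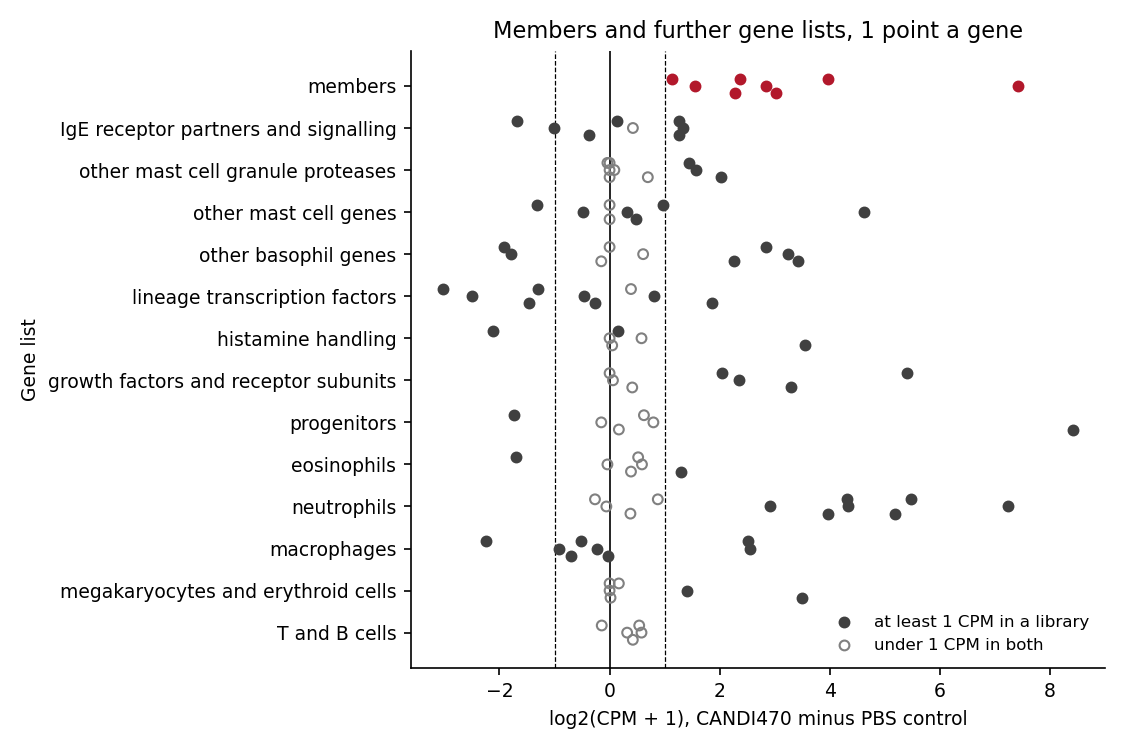
Difference in log2(CPM + 1), CANDI470 minus PBS control, for each gene of the 14 lists, with filled points for genes that reached 1 CPM and open points for genes under 1 CPM in both. Dashed lines mark 2-fold. All 8 members lie to the right of the upper line, while the partners of the IgE receptor and the lineage transcription factors lie on both sides.

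Transcription factors of these lineages other than Gata2 were not higher as a group. Of 9, 8 reached 1 CPM, with a median log2 difference of -0.89. At least 2-fold higher was 1, beside 25.7% of all genes, and at least 2-fold lower were 4, beside 23.6%. Stat5a, which acts below the IL-3 and GM-CSF receptors, was the higher gene at 1.86. Cebpa, a factor of granulocyte and macrophage precursors, was lowest at -3.03, followed by Lmo2, a partner of GATA factors, at -2.50. Spi1, which encodes PU.1, had 11957 counts with CANDI470 and 16154 with PBS, a difference of -0.27. Gata1, the relative of Gata2 in mast cells and red cell precursors, had 10 and 0 counts.

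The growth factors that feed these cells and their receptor subunits were measured as well. Of 7, 4 reached 1 CPM and all 4 were at least 2-fold higher in CANDI470, where the share over all genes was 25.7%. One of these, Il33, reached the minimum only through the CANDI470 library. Il33, a cytokine that acts on mast cells and basophils, had 1367 counts with CANDI470 and 1 with PBS and a difference of 5.40. Csf2rb, the shared beta chain of the IL-3, IL-5 and GM-CSF receptors, had a difference of 3.29 and its relative Csf2rb2 one of 2.34. Kitl, which encodes the ligand of KIT, had a difference of 2.04, and Il3 had 0 counts in both libraries.

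Markers of some other marrow cells were higher in the same library as the members. Of 11 neutrophil genes, 7 reached 1 CPM and all 7 were at least 2-fold higher in CANDI470, with a summed level over the list of 701 CPM with CANDI470 and 8.34 CPM with PBS. Lcn2 led that list with a log2 difference of 7.24, then Ngp with 5.46. The share over all genes was 25.7%, and 3 of the 7 lay under 1 CPM in the control. The genes of its earliest granule stage were under 1 CPM in both libraries, with 2 and 10 counts for Elane, 9 and 12 for Mpo and 19 and 8 for Prtn3, and Ly6g had 27 and 0. Of 6 progenitor genes, 2 reached 1 CPM. Ly6a, which interferon also induces, had 37942 and 88 counts and a difference of 8.42, and Meis1 had -1.73, while Cd34 had 23 and 4 counts and Flt3 had 30 and 4. Of 6 eosinophil genes, 2 reached 1 CPM, Siglecf with 74 and 12 counts and a difference of 1.30, and Ccr3 with 81 and 374 counts and a difference of -1.69. Siglecf lay under 1 CPM in the control and passed only through the CANDI470 library. The summed level of the list was 6.24 CPM with CANDI470 and 10.8 CPM with PBS, and most of the control sum was Ccr3. The other 5 genes together had 121 and 18 counts, among them 14 and 0 for Epx and 23 and 5 for Prg2. Of 6 genes of megakaryocytes and red cell precursors, 2 reached 1 CPM and both were at least 2-fold higher, beside 25.7% of all genes. These were Pf4 with a difference of 3.49 and Itga2b with 1.40, or 0.96 with library totals. Itga2b lay under 1 CPM in the control and reached the minimum only through the CANDI470 library. None of 5 T and B cell genes reached 1 CPM, and their summed level was 2.01 CPM with CANDI470 and 0.442 CPM with PBS. The part of these other cells in the members' levels was not tested.

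The members' differences were above 0 under each scaling, pseudocount and depth tried. For Fcer1a, Ms4a2 and Gata2 that sign was fixed in advance by their 0 counts in the control. A change of pseudocount cannot turn the sign of any gene, so those settings bear only on the size of the differences. The range over these settings was 5.30 to 9.55 for Hdc, 1.99 to 6.89 for Prss34, 1.46 to 4.58 for Cpa3 and 1.26 to 4.81 for Mcpt8. For genes with 0 counts in the control it was 0.88 to 5.42 for Fcer1a, 0.82 to 5.30 for Gata2 and 0.47 to 4.33 for Ms4a2, which is set mostly by the pseudocount. Kit ranged from 0.54 to 1.34. In the authors' deposited log2 values, which use another scaling, the CANDI470 and control values were 7.88 and 0.25 for Hdc, 2.57 and 0 for Fcer1a, and 3.38 and 2.19 for Kit.

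**Figure D5:**
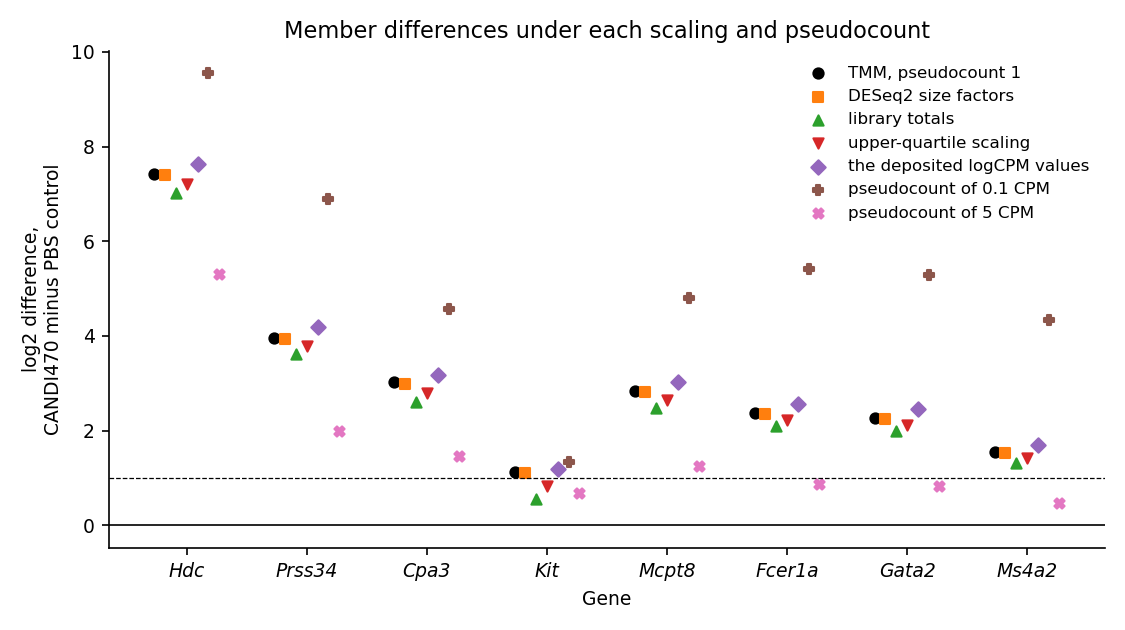
Difference in log2 level, CANDI470 minus PBS control, of each gene under 4 scalings at a pseudocount of 1 CPM, in the deposited log2 values, and with pseudocounts of 0.1 and 5 CPM. The dashed line marks 2-fold. All points lie above 0, and those of Kit fall on both sides of the 2-fold line, between 0.54 and 1.34.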

How the data were processed

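Whole-number counts per gene, not normalized, were deposited by the authors in 1 table for each sample, per the file headers. The authors also deposited log2 values, for 12726 genes in the control. Where the count was above 0, the only genes checked, these equalled log2(count × factor + 1) at a constant factor in each library. The build is mm10 per the submitters' processing notes, while aligner, counter, strand setting and annotation release are not given in the sources used here. Their tables list 56748 and 54532 identifiers. Coordinates equal to GENCODE on GRCm38 were found for 7 members in the control table but for 0 in the other. Those printed therefore come from the control table, and the build of the CANDI470 table was not tested. In the tables, 6 columns of per-sample values match no sample record and were not used.

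Genes were joined by identifier. TMM factors from edgeR 4.0.16 (R 4.3.3), computed on genes reaching 1 CPM in either sample, were 0.782 for CANDI470 and 1.28 for the control. The difference is log2(CPM + 1) in CANDI470 minus the control, which understates the change of low genes. With 1 sample a group no test was run. Intervals are exact Poisson (levels) and exact conditional binomial (ratios), at 95%, from scipy 1.17.1. They and the floors cover counting error only, as the labels name no molecular identifiers for the reads. Multiples of the floor use 3 counts per library and lie above the lower limit of the 95% interval, as with 50.4 against 40.4 for Fcer1a. They are not lower bounds of a ratio. Scripts were tested on simulated data in which few genes differed, so that test cannot show how the scaling performs where many genes differ.

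The members and the 13 further lists, with 98 entries, were chosen with earlier results of these data known. All 8 members are named, and of each further list the genes with the largest differences or the most counts. Other genes are named where a count is small, and these were chosen after their values were seen. The scaling was varied (upper-quartile, library totals, size factors from DESeq2 1.42.0), as were the features used for it (protein-coding genes only), the pseudocount, the minimum, the depth, by thinning, and the source, by the deposited log2 values. TMM over all shared identifiers was added after seeing the data.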

Additional observations from a re-analysis of the deposited data

How the results depend on the processing

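No paired analysis was possible because each group had 1 sample, and for the same reason no replicate could be left out. The median log2 difference of all genes was -0.01 with the main scaling, -0.05 with DESeq2 size factors, -0.35 with upper-quartile scaling and -0.65 with library totals, and the members' differences move with it. The summed ratio of 66.2 was 40.5 with library totals, 51.2 with upper-quartile scaling and 13.9 without Hdc. The members at least 2-fold higher numbered 7 with library totals and with upper-quartile scaling, which Kit left, 4 with a pseudocount of 5 CPM and 5 with a minimum of 5 CPM. The further mast cell and basophil genes at least 2-fold higher, 8 in the main count, numbered 4 with a pseudocount of 5 CPM and 4 with a minimum of 5 CPM. Of 58 genes of the other lists that reached 1 CPM, library totals turned the sign of 4 (Lat2, Slc18a2, Il1rl1 and Hrh1), took 5 out of those at least 2-fold higher and added 6 to those at least 2-fold lower, and upper-quartile scaling turned 2, took out 3 and added 2. Of 72 recomputed member differences, 72 lay above 0 and 21 moved beyond the counting interval of the main value. The sign was fixed in advance for Fcer1a, Ms4a2 and Gata2, which had 0 counts in the control. Cpa3, Mcpt8, Prss34 and Hdc had ratios of 31.4 to 1201, beyond the shift between scalings. The sign was thus open for Kit at most, and there not to the pseudocount, which cannot turn the sign of any gene. Thinning CANDI470 to the control depth gave a summed ratio of 65.1. Low counts in the control, 0 to 11 for 7 members, limit the precision of their ratios.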

Other observations

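Genes within 200 kb of 3 members were looked at after the values were seen, and are given as values only. Beside Mcpt8 on chromosome 14, 9 other genes had a count, 5 of them reached 1 CPM, and all 5 were higher by 2-fold or more with CANDI470, where the share over all genes was 25.7%. Of these, 4 lay under 1 CPM in the control and passed only through the CANDI470 library. The 5 were the proteases Cma1 and Ctsg, the granzyme genes Gzmb and Gzmc, and Khnyn, an RNA-binding protein gene. Gzmb, a protease of cytotoxic granules, had 843 counts with CANDI470, 315 times the control floor, and 0 with PBS. Gzmc had 68 and 2 counts.

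Beside Ms4a2 on chromosome 19, 11 other genes had a count and 9 reached 1 CPM. Higher by 2-fold or more with CANDI470 were 7, beside 25.7% of all genes, with 2 of the 7 under 1 CPM in the control. Lower were 0, beside 23.6%. Its relatives of the membrane-spanning Ms4a family that macrophages express had far more counts than Ms4a2: Ms4a4c had 34074 with CANDI470 and 193 with PBS, and Ms4a6d had 41646 and 2082. The log2 difference was 7.38 for Ms4a4c, 4.46 for Ms4a6d and 3.54 for Ms4a6b, while Mrpl16, a mitochondrial ribosome gene in the same window, had -0.39.

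Beside Prss34 on chromosome 17, 13 other genes had a count and 9 reached 1 CPM. Higher by 2-fold or more with CANDI470 were 2, beside 25.7% of all genes, with 1 of the 2 under 1 CPM in the control. Lower were 3, beside 23.6%. The higher genes were the tryptase gene Tpsb2 and Clcn7, a lysosomal chloride transporter gene with a difference of 1.27. The lower genes were Telo2 with -1.23, Gnptg with -1.55 and BC003965 with -1.97.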
